A study of Sus scrofa with 120 samples.

Results

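The genes described here encode the nuclear subunits of the respiratory chain and of ATP synthase. They were taken by name from the gene table: protein-coding genes whose symbols begin with NDUFA, NDUFB, NDUFC, NDUFS or NDUFV, UQCR, COX4 to COX8 or ATP5, together with SDHA to SDHD, and without the NDUFAF assembly factors. The rule found 65 of the 31907 gene identifiers, of which 21278 are protein-coding. Complex I contributed 30 genes, complex II 3, complex III 5, complex IV 13 and ATP synthase (complex V) 13. The remaining gene was NDUFA4L2, a paralogue of the complex IV subunit NDUFA4. The exclusion removed 8 NDUFAF genes, and 11 subunit genes whose names come only through RefSeq, among them SDHA and ATP5B (the RefSeq symbol for the gene also called ATP5F1B), lie outside the rule and are given apart.

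Complexes I and II pass electrons from NADH and succinate to ubiquinone, complex III passes them on to cytochrome c, and complex IV passes them to oxygen. Complexes I, III and IV pump protons across the inner mitochondrial membrane, and ATP synthase uses that gradient to make ATP. Most subunits are encoded in the nucleus and a few in mitochondrial DNA, so each complex except II is built from the products of both genomes. Articular cartilage has no blood vessels, and its chondrocytes live at low oxygen and make much of their ATP by glycolysis.

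For the main comparisons the same core subunits are named or counted: NDUFS1 and NDUFV1 of the NADH-oxidising arm of complex I, SDHA and SDHB of complex II, UQCRC1 and UQCRFS1 of complex III, COX4I1 and COX5A of complex IV, and the alpha and beta subunits ATP5F1A and ATP5B of ATP synthase. A further 5 tested genes are treated in the same way: NDUFA4L2, the isoforms COX4I2 and COX6A2, COX8A and the ATP synthase inhibitor ATP5IF1.

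The cells were primary chondrocytes from pig femoral cartilage, cast in 2% agarose. In the TRPV4 experiment, 12 groups of 4 libraries covered 6 conditions at 3 h and at 9 h: free-swelling constructs in the vehicle DMSO, the TRPV4 agonist GSK101 (1 nM), cyclic unconfined compressive loading (10% deformation at 1 Hz for 3 h), the TRPV4 antagonist GSK205 (10 uM), loading with GSK205, and IL-1, an inflammatory cytokine, at 1 ng/mL (named IL-1a in the protocol). The PIEZO1 experiment had 18 groups of 4 libraries that crossed 3 kinds of cell (not transfected, NT; a non-targeting siRNA, siNTC; an siRNA against PIEZO1, siPIEZO1) with DMSO vehicle, a single quasi-static compression to 80% deformation or the PIEZO1 agonist Yoda1 (5 uM), at the same times. The doses of GSK205 and Yoda1 are those of the series' design text; the sample protocol gives the same figures in mM, so their unit is uncertain. Times count from the onset of stimulation. The experiments used different library kits and were fitted apart, and levels are not compared between them. Levels are CPM, the counts of a gene relative to the scaled library total. They depend on transcript length, so they are compared between groups for a gene and never between genes. "Called" means an adjusted p under 0.05 in edgeR's quasi-likelihood test over all genes.

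Total counts ran from 20651530 to 80223797 per library in the TRPV4 experiment and from 36807992 to 66240251 in the PIEZO1 experiment. The 65 genes took 0.262% to 0.412% of the counts in the former and 1.07% to 1.63% in the latter. COL2A1, the main cartilage collagen, lay between 33176 and 72143 CPM and between 3511 and 8390 CPM. Of the 16 chondrocyte markers, MATN3 lay between 173 and 376 CPM and between 0.787 and 7.55 CPM. CYTL1 lay between 7.36 and 71.9 CPM and between 880 and 2156 CPM. Some markers of other cells were also present, and others were near 0. Of 10 fibroblast markers, PDGFRA lay between 84.6 and 232 CPM and between 40.5 and 253 CPM, and COL3A1 between 212 and 975 CPM and between 48.5 and 1254 CPM. Of 10 leukocyte markers, CD14 lay between 18.8 and 94.8 CPM and between 3.92 and 55.0 CPM, CD79A between 0.286 and 3.85 CPM and between 17.4 and 42.6 CPM, and PTPRC, carried by nearly all leukocytes, reached at most 0.335 and 0.562 CPM. LYZ was at 0 CPM in every library. The fibroblast marker MFAP5 reached at most 0.225 and 0.421 CPM. Of 8 endothelial markers, ERG lay between 49.3 and 93.6 CPM and between 64.6 and 136 CPM, and CDH5 reached at most 0.544 and 1.32 CPM. The erythroid and adipocyte markers summed to at most 2.07 and 2.98 CPM. PIEZO1 itself lay between 3.71 and 9.34 CPM in siNTC libraries and between 2.26 and 6.11 CPM in those labelled siPIEZO1. Its log2 fold change between these 2 kinds of vehicle library was -0.24 ± 0.19 (SE, adjusted p = 0.58) at 3 h and -0.66 ± 0.23 (adjusted p = 0.062) at 9 h. Neither passed the threshold, so "siPIEZO1" names libraries by their label below. The stimulated groups were not tested for PIEZO1. With Yoda1 siNTC and siPIEZO1 libraries did not overlap, at 5.74 to 9.34 CPM against 4.16 to 5.62 CPM at 3 h. At 9 h with Yoda1 they lay at 5.26 to 7.21 CPM against 3.69 to 4.55 CPM. Under compression, as with vehicle, the ranges overlapped at both times. In the sum over the 65 genes 4 libraries stood apart from their groups. The widest gap was that of replicate 1 of siPIEZO1 vehicle at 3 h, at 16886 CPM against 10863 to 11532 CPM in the other 3 of its group. Comparisons that use this library are given with and without it. The data are bulk RNA, in which fewer cells of a type and less RNA per cell cannot be told apart.

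NDUFB7 had 0 counts in every library, and COX7A1, the muscle isoform of a small complex IV subunit, had 118 counts in all over the TRPV4 libraries and 237 over the PIEZO1 libraries. With COX6B2, which was too low in the TRPV4 experiment at either time alone, they left 62 genes tested there and 63 in the other fits. By RefSeq positions 13 members share over 100 bases with another gene, and the strand setting of the counting is not given in the sources used here, so reads of such pairs may be mixed. They are NDUFB10 (744 bases with RPL3L), ATP5PF (722 with GABPA), NDUFB11 (648 with RBM10), ATP5PB (435 with WDR77), NDUFA1 (215 with RNF113A), NDUFS3 (162 with KBTBD4) and UQCRC2 (4119 with PDZD9), together with NDUFB4, ATP5F1C and ATP5MG, which overlap long non-coding RNA genes, and NDUFS4, COX7A2L and ATP5F1A, which overlap pseudogenes. Replicates agreed closely for most of these genes. The median biological coefficient of variation of the tested members was 0.0746 at 3 h and 0.0666 at 9 h in the TRPV4 experiment, and 0.118 and 0.0817 in the PIEZO1 experiment.

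GSK101 lowered most of the changing subunit genes at 3 h. Of 62 tested, 35 fell and 3 rose, where 40.0% of all tested genes were called and 18.0% were called lower. The median log2 fold change was -0.22 over the members and 0.01 over all genes. The falls lay in each complex: 15 of 29 genes of complex I, 1 of 3 of complex II, 3 of 5 of complex III, 7 of 11 of complex IV and 9 of 13 of ATP synthase. The size was modest, with fold changes between -0.58 and 0.29 on the log2 scale.

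UQCR10, a small subunit of complex III, stood at 27.8, 39.3, 33.4 and 37.5 CPM in the DMSO libraries and at 20.2, 24.01, 22.4 and 24.6 CPM with GSK101. All 4 treated libraries were below the lowest control, log2 fold change -0.58 ± 0.09 (SE), adjusted p = 1.2e-05. COX4I1, the widely expressed isoform of complex IV subunit 4, stood at 39.2, 41.3, 41.6 and 53.0 CPM and 29.2, 33.6, 27.2 and 31.0 CPM, again without overlap, log2 fold change -0.52 ± 0.09 (SE), adjusted p = 5.1e-05. SDHB, the iron-sulfur subunit of complex II, went from 43.9, 55.4, 52.9 and 52.0 CPM to 37.2, 39.9, 39.6 and 41.2 CPM, also without overlap, log2 fold change -0.35 ± 0.07 (SE), adjusted p = 9.2e-05. In complex I the largest fall was in NDUFA2, an accessory subunit, from 15.5, 23.5, 20.7 and 22.9 CPM to 11.8, 13.5, 13.8 and 16.1 CPM. Its groups overlapped, since 1 DMSO library was below the highest treated one, log2 fold change -0.57 ± 0.12 (SE), adjusted p = 0.00026. In ATP synthase it was ATP5MC2, a gene for the membrane ring subunit c, from 23.9, 22.4, 20.3 and 27.1 CPM to 12.7, 15.4, 15.1 and 19.7 CPM, log2 fold change -0.55 ± 0.12 (SE), adjusted p = 0.0005. The treated libraries were all below the controls. Core and catalytic subunits varied in the size of their change, beside the median of -0.22 over the members. SDHA fell, at -0.36. NDUFS1 fell, at -0.17 ± 0.05 (adjusted p = 0.013), and the call was lost without GSK101 replicate 1, ATP5B fell, at -0.30 ± 0.07 (adjusted p = 0.0014), and ATP5F1A was not called, at -0.05 ± 0.05 (adjusted p = 0.52). Among the 10 core subunits 6 were lower (NDUFS1, SDHA, SDHB, UQCRC1, COX4I1 and ATP5B), and among the 5 isoform and inhibitor genes 1 was higher (NDUFA4L2) and 3 were lower (COX4I2, COX8A and ATP5IF1).

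The genes that rose at 3 h were NDUFB3, NDUFA5 and NDUFA4L2. NDUFA4L2 is known in human and mouse cells as a gene induced by low oxygen. It stood at 659, 617, 641 and 642 CPM in DMSO and at 835, 773, 765 and 703 CPM with GSK101. The groups did not overlap, log2 fold change 0.29 ± 0.06 (SE), adjusted p = 0.00014.

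**Figure D1:**
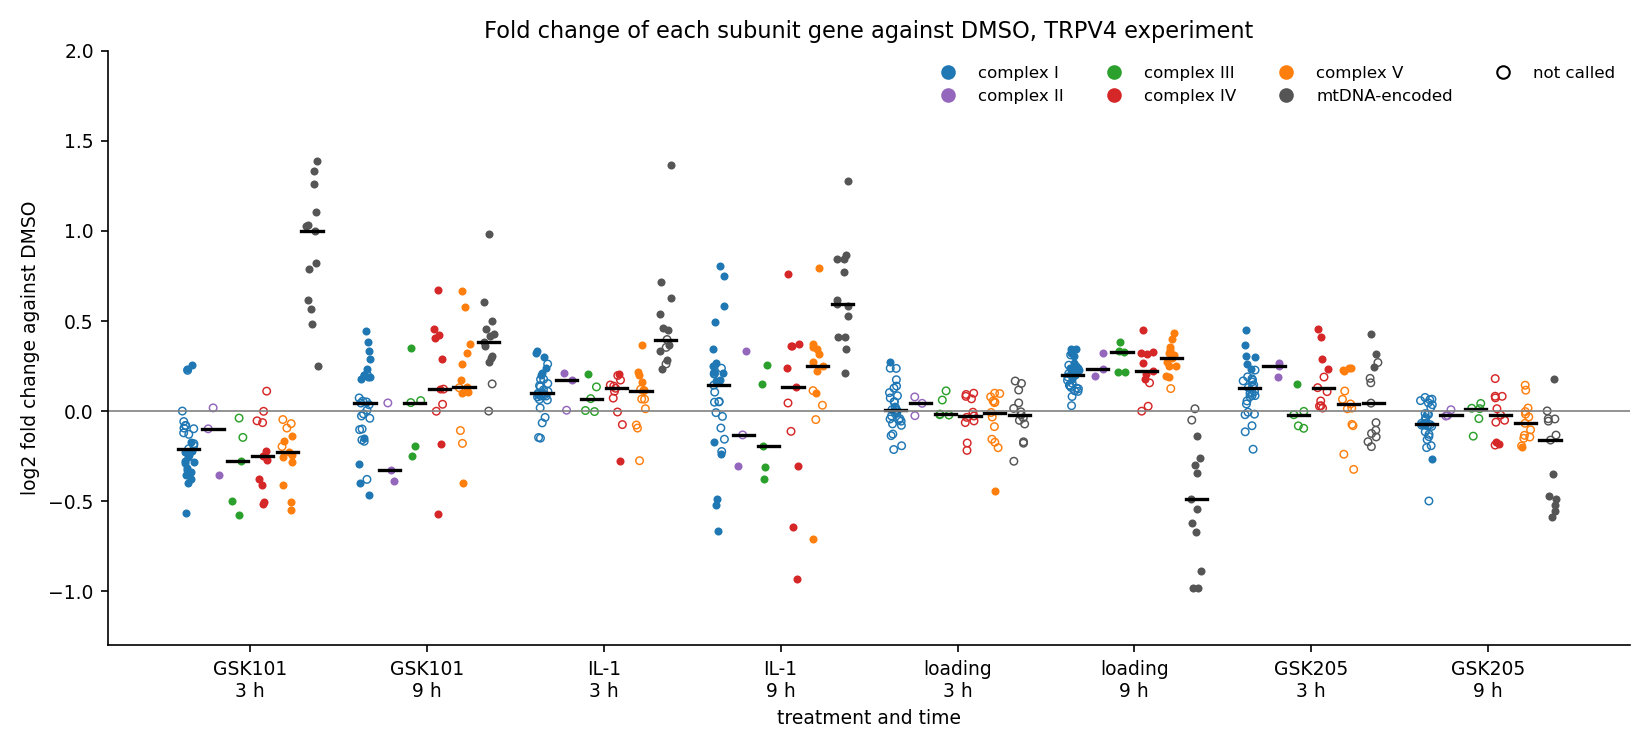
Log2 fold change against DMSO (vertical axis) of each tested gene except NDUFA4L2, by complex, and of the 13 mtDNA-encoded subunits. Treatments are GSK101, IL-1, loading and GSK205 at 3 h and 9 h. Filled points are called, open points are not, and bars are medians. Nuclear genes lie mostly below 0 for GSK101 at 3 h and mostly above 0 for loading at 9 h. The mtDNA-encoded genes lie above 0 in the former and mostly below 0 in the latter. All treatments at a time share the same 4 DMSO libraries.

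By 9 h of GSK101 the genes had separated. Of 62 tested, 27 were higher and 11 lower, where 62.3% of all tested genes were called, 29.3% higher and 33.0% lower. The share of members called, 61.3%, was thus close to the background. The median was 0.07 over the members and -0.07 over all genes. ATP synthase had 9 genes higher and 1 lower, complex IV 6 and 2, complex I 10 and 4, complex III 1 and 2, and complex II 0 and 2.

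The largest rises were in COX7A2, ATP5MD and ATP5MG. COX7A2, an isoform of complex IV subunit 7A, stood at 35.3, 35.1, 34.1 and 34.5 CPM in DMSO and 64.5, 54.4, 48.8 and 58.3 CPM with GSK101, log2 fold change 0.67 ± 0.08 (SE), adjusted p = 3.9e-09. ATP5MG, a membrane subunit at the dimer interface of ATP synthase, went from 58.5, 52.9, 53.1 and 50.5 CPM to 82.4, 84.0, 80.4 and 80.3 CPM, log2 fold change 0.58 ± 0.06 (SE), adjusted p = 1.5e-09. In both, every treated library was above every control. Of the catalytic and core subunits, ATP5F1A rose by 0.32 ± 0.04 (adjusted p = 8.7e-09), and UQCRFS1, the Rieske iron-sulfur protein of complex III, by 0.35 ± 0.05 (adjusted p = 1.4e-06). The falls included COX6A2, the muscle-type isoform of complex IV subunit 6A, at 31.0, 31.2, 29.5 and 28.4 CPM in DMSO and 20.7, 23.1, 20.1 and 18.3 CPM with GSK101. These groups did not overlap, log2 fold change -0.57 ± 0.08 (SE), adjusted p = 8.7e-08. The muscle marker list was low throughout, at 2.59 to 7.82 CPM summed over 6 genes in the TRPV4 libraries. SDHB was again lower, at 54.9, 51.0, 51.0 and 51.4 CPM against 44.4, 41.2, 41.5 and 42.3 CPM, -0.32 ± 0.05 (adjusted p = 2.0e-06). SDHC, a membrane anchor of complex II, fell, at -0.39 ± 0.07 (adjusted p = 1.6e-05). NDUFB10 fell, at -0.47 ± 0.07 (adjusted p = 1.3e-06), as did NDUFS3, a core subunit of complex I, at -0.40 ± 0.08 (adjusted p = 5.4e-05). Of the 10 core subunits 3 were higher (UQCRFS1, COX4I1 and ATP5F1A) and 2 were lower (SDHA and SDHB), and of the 5 isoform and inhibitor genes 1 was higher (NDUFA4L2) and 1 was lower (COX6A2).

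The effect of GSK101 differed between times for 40 of 63 genes, 37 of them more positive at 9 h, where 45.8% of all tested genes were called for this difference. The median difference was 0.33 over the members and -0.05 over all genes. In all, 15 genes were called lower at 3 h and higher at 9 h, 8 were lower at both times and 1, NDUFA4L2, was higher at both. The 15 include COX4I1, COX7A2, COX5B, COX6A1, COX7B, NDUFA1, NDUFB2 and ATP5MG. COX4I1, below its controls at 3 h, stood at 39.4, 30.7, 35.7 and 37.7 CPM in DMSO and 60.5, 45.1, 43.4 and 51.4 CPM with GSK101 at 9 h. The treated libraries were all above the controls, and the effects differed between times by 1.02 ± 0.13 (adjusted p = 6.0e-09) on the log2 scale. For COX7A2 the difference was 1.10 ± 0.14 (adjusted p = 3.6e-09). The 8 genes lower at both times included NDUFB10, SDHB, UQCR10 and ATP5F1D. For COX6A2 and SDHC the effect was instead more negative at 9 h. The differences were -0.53 ± 0.10 (adjusted p = 2.2e-05) and -0.36 ± 0.10 (adjusted p = 0.0022). Each effect is against DMSO of its own time. In DMSO itself 15 of 63 genes fell and 1 rose from 3 h to 9 h, with a median of -0.12. That is 25.4% called, where 22.2% of all tested genes were. The part of this shift in the differences was not tested.

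**Figure D2:**
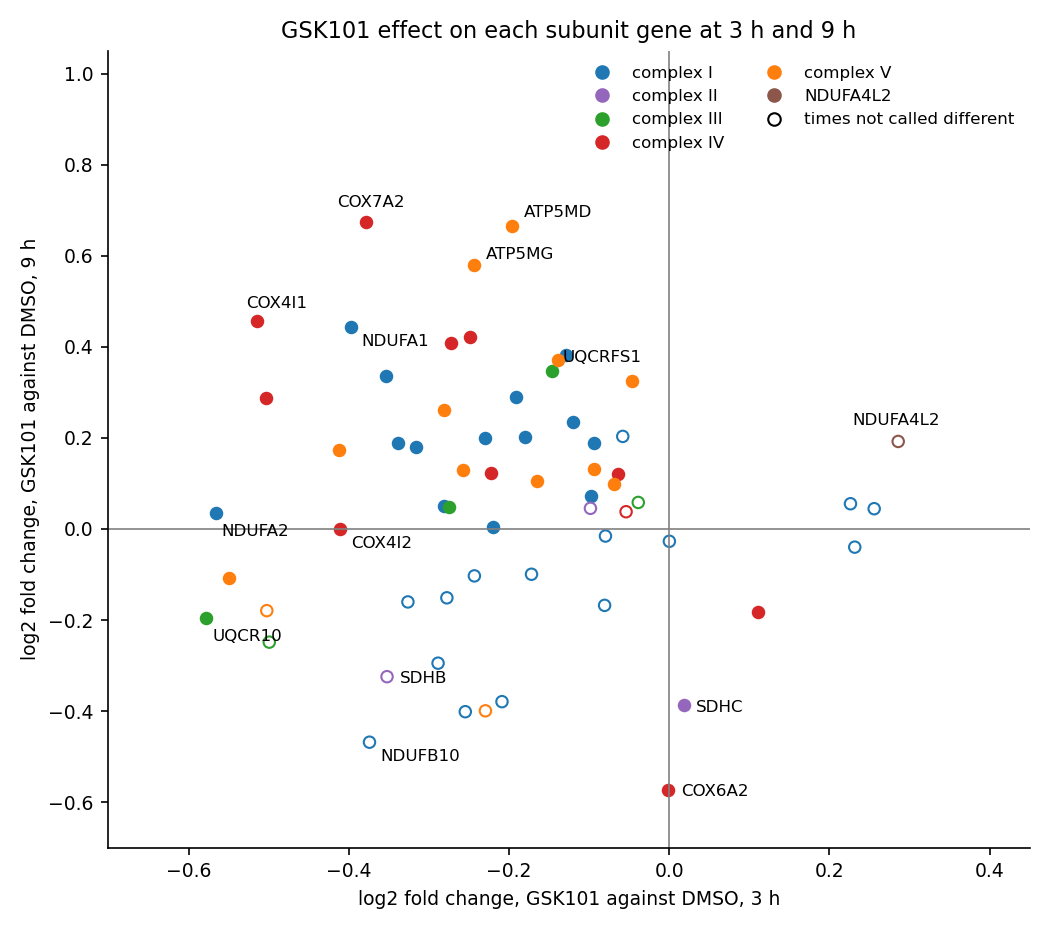
Log2 fold change of each of the 62 tested genes with GSK101 against DMSO at 3 h (horizontal axis) and at 9 h (vertical axis), coloured by complex; filled points are genes whose effect differed between times in edgeR's test. The 15 genes lower at 3 h and higher at 9 h fill the upper left part, and SDHB and NDUFB10 lie in the lower left part.

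Loading gave almost no call at 3 h and a broad rise at 9 h. At 3 h 1 of 62 genes was higher and 1 lower, where 10.2% of all tested genes were called. NDUFB3 stood at 22.5, 26.6, 25.6 and 20.9 CPM in DMSO and 27.4, 29.999, 27.4 and 29.5 CPM with loading, log2 fold change 0.27 ± 0.08 (SE), adjusted p = 0.038, and the call was lost without DMSO replicate 1 or 4 or loading replicate 2, 3 or 4, and also with RLE scaling, with protein-coding genes alone, with the replicate number as a block or with the compared groups fitted alone. ATP5IF1, the inhibitor that holds back ATP hydrolysis by ATP synthase, stood at 6.36, 8.33, 10.0 and 10.0 CPM and 5.92, 6.55, 6.70 and 6.36 CPM, log2 fold change -0.44 ± 0.14 (SE), adjusted p = 0.037, and the call was lost without DMSO replicate 2, 3 or 4 or loading replicate 1, 2, 3 or 4, and also with the replicate number as a block. The groups did not overlap for NDUFB3, while 1 DMSO library of ATP5IF1 lay within the loaded range. Calls numbered 0 without DMSO replicate 4 or loading replicate 2, 3 or 4 and 1 without DMSO replicate 3 or loading replicate 1.

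At 9 h after the onset of loading, 41 of 62 genes were higher and 1 was lower, which is 67.7% of the members where 23.7% of all tested genes were called and 12.5% were called higher. The median log2 fold change was 0.23 over the members and 0.01 over all genes. All 3 tested genes of complex II and all 5 of complex III rose, with 12 of 13 of ATP synthase, 8 of 11 of complex IV and 13 of 29 of complex I. The exception in ATP synthase was ATP5IF1, at 0.13 ± 0.11 (adjusted p = 0.46). In complex IV the genes not called were COX6A2, COX7A2L and COX8A. Over all 62 genes the log2 fold changes ran from -0.13 to 0.45. Among the 10 core subunits 8 were higher (NDUFS1, SDHB, UQCRC1, UQCRFS1, COX4I1, COX5A, ATP5F1A and ATP5B), and among the 5 isoform and inhibitor genes 1 was higher (COX4I2) and 1 was lower (NDUFA4L2).

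COX7B, a small complex IV subunit, stood at 31.9, 28.5, 29.9 and 30.6 CPM in DMSO and 42.5, 41.0, 40.0 and 43.4 CPM with loading, log2 fold change 0.45 ± 0.06 (SE), adjusted p = 5.0e-06. UQCRC1, a core protein of complex III, stood at 87.3, 74.7, 86.4 and 82.4 CPM and 111, 108, 100.2 and 101.4 CPM, log2 fold change 0.33 ± 0.05 (SE), adjusted p = 2.6e-05. ATP5F1A stood at 262, 243, 257 and 254 CPM and 318, 306, 290.1 and 311 CPM, log2 fold change 0.25 ± 0.04 (SE), adjusted p = 1.4e-05. In all 3 genes each loaded library was above every control. ATP5MC2 rose by 0.43 ± 0.08 (adjusted p = 0.00025), SDHB by 0.20 ± 0.05 (adjusted p = 0.0038), SDHD, the other membrane anchor of complex II, by 0.32 ± 0.07 (adjusted p = 0.00047), and NDUFS1, which carries electrons away from the NADH site of complex I, by 0.18 ± 0.05 (adjusted p = 0.0068). NDUFV1, the subunit that binds NADH, was not called at 0.08 ± 0.09 (adjusted p = 0.55). NDUFA4L2 was the 1 gene called lower, at -0.13 ± 0.04 (adjusted p = 0.036), and the call was lost without DMSO replicate 1, 2 or 4 or loading replicate 1, 2 or 4, and also without the filter on low counts. Summed over its 13 genes, ATP synthase stood at 874 ± 23.98 CPM in DMSO and 1067 ± 43.3 CPM with loading at 9 h (SD, n = 4), and the 30 complex I genes at 824 ± 15.99 CPM and 957 ± 32.7 CPM.

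GSK205 alone raised 18 of 62 genes at 3 h and lowered none, where 27.1% of all tested genes were called and 14.6% were called higher. The members' median was 0.11 and that of all genes -0.01. All 3 tested complex II genes rose, with 6 of complex I, 1 of complex III, 4 of complex IV and 4 of ATP synthase. COX7A2L, which helps complexes III and IV assemble into supercomplexes, stood at 140.5, 147, 148 and 137 CPM in DMSO and 192, 198, 191 and 177 CPM with GSK205, with no overlap, log2 fold change 0.41 ± 0.05 (SE), adjusted p = 2.4e-07. COX6A2 stood at 26.3, 24.5, 25.7 and 27.3 CPM and 36.3, 38.0, 33.8 and 33.6 CPM, also with no overlap, log2 fold change 0.46 ± 0.07 (SE), adjusted p = 8.5e-06. NDUFV1 rose by 0.31 ± 0.07 (adjusted p = 0.0018). Of the 10 core subunits 2 were higher (NDUFV1 and SDHB), and of the 5 isoform and inhibitor genes 2 were higher (COX6A2 and COX8A). At 9 h 4 of 62 were called, all lower, where 21.2% of all tested genes were: NDUFS3, COX4I2, COX5B and ATP5MG. The number of calls became 0 without GSK205 replicate 3 and 1 without DMSO replicate 1 or 4. Of the 10 core subunits 1, a gene outside the naming rule, was lower at 9 h. Of the 5 isoform and inhibitor genes 1 was lower (COX4I2). The difference between times was not tested for GSK205.

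Loading in the presence of GSK205 was compared with loading alone and with GSK205 alone. Against loading alone, 23 of 62 genes were higher at 3 h and none lower, where 15.3% of all tested genes were called and 7.11% higher. The members' median was 0.20 and that of all genes -0.02. Complex IV led with 8 genes, followed by complex I and ATP synthase with 6 each and complex II with 3. COX4I2, the isoform of subunit 4 known from lung and from cells at low oxygen, stood at 93.8, 99.9, 104 and 102 CPM with loading and 152, 132, 112 and 115 CPM with both, log2 fold change 0.34 ± 0.09 (SE), adjusted p = 0.0063. Each library with both was above every loaded one, and the call was lost without loading with GSK205 replicate 1. Counted anew, calls were 6 without loading with GSK205 replicate 1, 9 without loading replicate 1 and 12 without loading replicate 2. Among the 10 core subunits 2 were higher (SDHB and COX4I1), and among the 5 isoform and inhibitor genes 3 were higher (COX4I2, COX6A2 and COX8A). At 9 h 6 genes were called against loading alone, all lower, where 4.10% of all tested genes were: COX7B, COX4I2, NDUFS4, NDUFS5, COX5B and ATP5MG. COX7B stood at 35.9, 30.7, 34.3 and 32.4 CPM with both, below each library loaded without GSK205, log2 fold change -0.33 ± 0.06 (SE), adjusted p = 0.0021. Fewer libraries gave another count of calls, 2 without loading with GSK205 replicate 1 or 3 or loading replicate 1 and 3 without loading replicate 2. Among the 10 core subunits 1, a gene outside the naming rule, was lower at 9 h. Among the 5 isoform and inhibitor genes 1 was lower (COX4I2).

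Against GSK205 alone, none of 62 genes was called at 3 h in edgeR's test (6 at an unadjusted p under 0.05 and 0 by DESeq2), where 11.9% of all tested genes were. At 9 h 22 were higher and none lower, where 18.0% of all tested genes were called and 8.82% higher, with a median of 0.16 against -0.01 over all genes. ATP synthase had 9 of these and complex I 8. ATP5MC2 stood at 17.1, 14.5, 14.9 and 17.3 CPM with GSK205 and 21.0, 22.7, 20.1 and 20.5 CPM with both, without overlap, log2 fold change 0.39 ± 0.08 (SE), adjusted p = 0.0012. Of the 10 core subunits 4 were higher (UQCRC1, UQCRFS1, ATP5F1A and ATP5B), and of the 5 isoform and inhibitor genes none was called. The test of whether GSK205 changed the effect of loading called none of 62 genes at 3 h (8 at an unadjusted p under 0.05 and 1 by DESeq2) where 2.25% of all tested genes were called. It called none at 9 h (5 and 2 by the same counts) where 4.64% were. The rises with loading at 9 h, 41 without GSK205 and 22 with it, were thus not called as different in edgeR's test for any of the 62 genes with all libraries, and for up to 3 with 1 library left out. The comparisons share libraries with each other.

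IL-1 moved the genes in both directions. The share of members called, 25.8% at 3 h, was below the background at that time and close to it at 9 h. At 3 h 15 of 62 were higher and 1 lower, where 32.2% of all tested genes were called, and the median was 0.11 against 0.01 over all genes. Of the 10 core subunits 2 were higher, NDUFV1 among them, and of the 5 isoform and inhibitor genes 1, COX6A2, was lower. The count of calls over the members was 10 without IL-1 replicate 2. At 9 h 29 were higher and 14 lower, which is 69.4% of the members where 65.1% of all tested genes were called, 30.6% higher and 34.5% lower. The median was 0.14 against -0.07 over all genes, and the fold changes ran from -0.93 to 0.80 on the log2 scale. ATP synthase had 9 genes higher and 1 lower, complex I 11 and 5, complex IV 6 and 3, complex III 2 and 3, and complex II 1 and 1. Among the 10 core subunits 3 were higher (UQCRC1, COX4I1 and ATP5F1A) and 6 were lower (NDUFS1, NDUFV1, SDHA, SDHB, UQCRFS1 and COX5A), and among the 5 isoform and inhibitor genes 3 were lower (NDUFA4L2, COX4I2 and COX6A2).

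The NADH-oxidising end of complex I split. NDUFV2 stood at 49.1, 54.9, 51.2 and 47.8 CPM in DMSO and 94.0, 90.4, 88.9 and 87.8 CPM with IL-1, log2 fold change 0.80 ± 0.05 (SE), adjusted p = 8.3e-15. Its partner NDUFV1 stood at 23.3, 18.4, 17.5 and 19.4 CPM and 17.1, 16.5, 15.96 and 18.2 CPM, log2 fold change -0.24 ± 0.09 (SE), adjusted p = 0.02. The groups of NDUFV2 did not overlap and those of NDUFV1 did, and the call was lost without DMSO replicate 1 or IL-1 replicate 3, and also with RLE scaling or by DESeq2. NDUFS1 fell, at -0.17 ± 0.05 (adjusted p = 0.0032). NDUFB6 rose by 0.75 ± 0.07 (adjusted p = 8.6e-11), while NDUFB10 fell, at -0.67 ± 0.07 (adjusted p = 9.4e-10), and so did NDUFS3, at -0.52 ± 0.08 (adjusted p = 5.8e-07). In complex II SDHB fell, at -0.30 ± 0.05 (adjusted p = 3.7e-06), and SDHD rose by 0.34 ± 0.07 (adjusted p = 4.2e-05). In complex III UQCRC1 rose by 0.26 ± 0.05 (adjusted p = 9.2e-05) and UQCRFS1 fell, at -0.19 ± 0.05 (adjusted p = 0.0022).

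Genes for alternative forms of the same subunit went in opposite directions at 9 h. COX4I1 stood at 45.3, 47.9, 47.7 and 46.5 CPM with IL-1, above all 4 DMSO libraries given above, 0.36 ± 0.08 (adjusted p = 0.00022). COX4I2 (chromosome 17, 35340499 to 35346090 in Sscrofa11.1) stood at 89.6, 72.4, 76.9 and 81.4 CPM in DMSO and 50.9, 52.1, 54.9 and 50.9 CPM with IL-1, log2 fold change -0.64 ± 0.06 (SE), adjusted p = 3.0e-11. Each IL-1 library was below every control.

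For subunit 6A, the widely expressed COX6A1 stood at 96.0, 85.2, 83.2 and 87.9 CPM and 100.7, 112, 108 and 103 CPM, 0.24 ± 0.05 (adjusted p = 0.00013). The muscle-type COX6A2 (chromosome 3, 17108623 to 17135108) stood at 14.9, 18.0, 17.7 and 13.8 CPM with IL-1, below all the DMSO values given above, log2 fold change -0.93 ± 0.08 (SE), adjusted p = 1.6e-12. RefSeq gives COX6A2, COX4I1 and COX4I2 only placeholder symbols, so these names rest on the gene table. COX7A2 stood at 59.8, 60.4, 58.7 and 60.8 CPM, above all its controls, 0.76 ± 0.08 (adjusted p = 1.9e-10).

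Subunit c of ATP synthase is made from 3 genes that encode the same mature protein. ATP5MC2 stood at 16.8, 15.1, 19.8 and 18.3 CPM in DMSO and 9.65, 11.5, 11.7 and 10.6 CPM with IL-1, log2 fold change -0.71 ± 0.09 (SE), adjusted p = 1.5e-08. ATP5MC1 stood at 36.2, 33.1, 35.1 and 31.4 CPM and 39.5, 41.6, 40.4 and 39.6 CPM, 0.22 ± 0.08 (adjusted p = 0.011), and the call was lost without DMSO replicate 4. ATP5MC3 stood at 55.0, 49.0, 49.6 and 51.9 CPM and 59.9, 61.7, 61.1 and 65.5 CPM, 0.25 ± 0.07 (adjusted p = 0.003). IL-1 libraries were thus all below the controls for ATP5MC2 and all above them for the other two. Near-identical coding stretches of these 3 genes could share reads, so the split between them is uncertain.

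The effect of IL-1 differed between times for 26 of 63 genes, 13 in each direction, where 38.8% of all tested genes were called for this difference. These effects, too, are against DMSO of their own time. In all, 11 genes were higher at both times, COX6A2 was lower at both, and 1, NDUFV1, was higher at 3 h and lower at 9 h. The differences were 0.69 ± 0.10 (adjusted p = 1.1e-07) for NDUFB6, 0.60 ± 0.14 (adjusted p = 0.00038) for COX7A2, 0.52 ± 0.10 (adjusted p = 1.2e-05) for NDUFV2, -0.62 ± 0.10 (adjusted p = 1.9e-06) for COX6A2 and -0.53 ± 0.11 (adjusted p = 9.0e-05) for COX4I2.

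**Figure D3:**
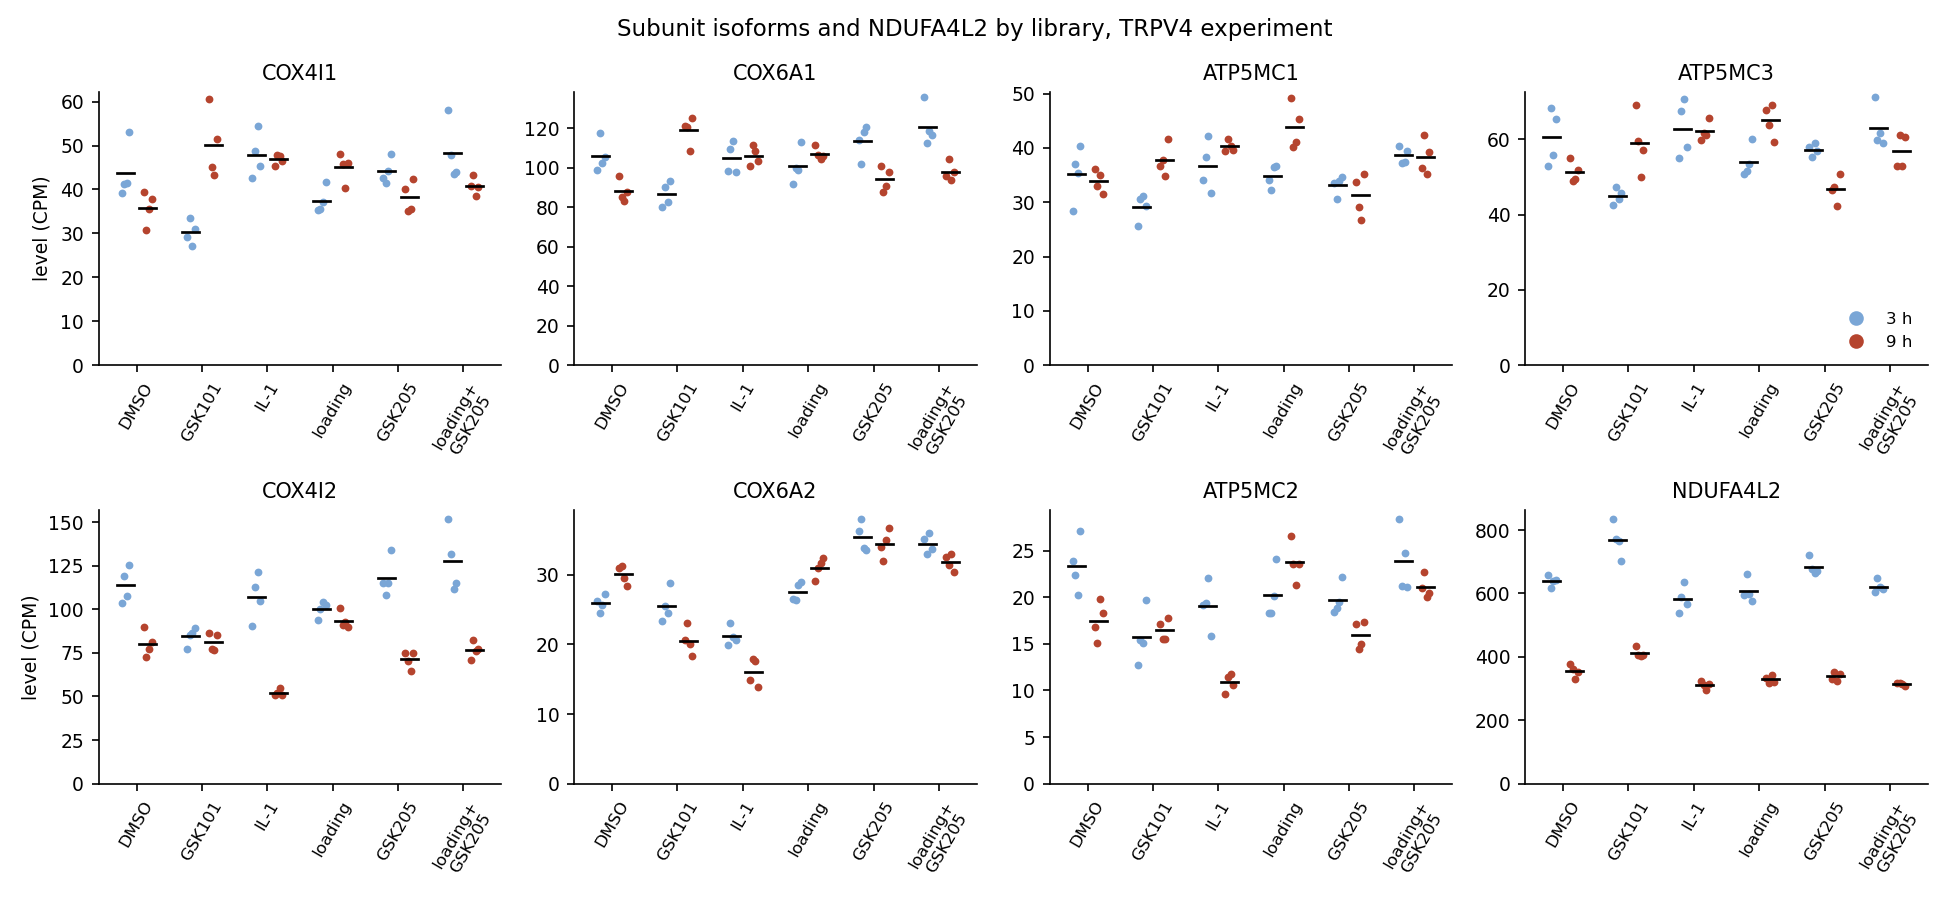
Level in CPM (vertical axis, from 0) of COX4I1, COX6A1, ATP5MC1 and ATP5MC3 (top) and COX4I2, COX6A2, ATP5MC2 and NDUFA4L2 (bottom) in each of the 4 libraries per group, at 3 h (blue) and 9 h (red); bars are group means. With IL-1 at 9 h the points of COX4I2, COX6A2 and ATP5MC2 lie below those of DMSO, and those of COX4I1, COX6A1, ATP5MC1 and ATP5MC3 lie above. Levels of different genes are not comparable.

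Between the times, the vehicle libraries differed in a share of these genes that was near or below that of all genes. From 3 h to 9 h in DMSO, 15 of 63 genes fell and 1 rose, which is 25.4% where 22.2% of all tested genes were called. The members' median was -0.12 and that of all genes -0.00. NDUFA4L2 (chromosome 5, 22540482 to 22548418) went from the 3 h levels given above to 377, 360.2, 329.7 and 353 CPM at 9 h. The times did not overlap, log2 fold change -0.85 ± 0.05 (SE), adjusted p = 3.1e-19. COX4I2 went from 104, 119, 107 and 126 CPM to the 9 h levels given above, -0.51 ± 0.08 (adjusted p = 1.3e-06). NDUFA1 fell, at -0.47 ± 0.08 (adjusted p = 3.2e-05), and NDUFB6 fell, at -0.44 ± 0.07 (adjusted p = 6.3e-06). COX6A2 rose by 0.21 ± 0.07 (adjusted p = 0.025), and the call was lost without DMSO 3 h replicate 2 or 3 or DMSO 9 h replicate 1 or 2, and also without the filter on low counts. Calls numbered 10 without DMSO 9 h replicate 2. Of the 10 core subunits 1 was lower (COX4I1), and of the 5 isoform and inhibitor genes 1 was higher (COX6A2) and 2 were lower (NDUFA4L2 and COX4I2). In NT vehicle libraries of the PIEZO1 experiment 2 of 63 genes rose and 2 fell between the times, which is 6.35% where 16.1% of all tested genes were called. NDUFA4L2 was 1 of the latter, from 869, 1031, 957 and 896 CPM to 754, 613, 679.6 and 528 CPM, -0.54 ± 0.11 (adjusted p = 7.8e-05). The number of calls became 2 without NT vehicle 9 h replicate 4. Of the 10 core subunits 2 were higher at 9 h, and of the 5 isoform and inhibitor genes 1 was lower (NDUFA4L2).

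Most of the 13 subunits encoded in mitochondrial DNA moved opposite to the nuclear ones with GSK101 at 3 h and loading at 9 h. With GSK101 at 3 h all 13 rose, where 40.0% of all tested genes were called, while 35 nuclear genes fell. The median of the 13 was 1.00 on the log2 scale. COX1 went from 5311, 5615, 5634 and 4603 CPM in DMSO to 6326, 6064, 5956 and 6475 CPM with GSK101, without overlap. In DMSO replicate 4 at 3 h the sum over the 13 stood apart, at 7519 CPM. ATP6, a subunit of the proton channel of ATP synthase, stood at 427, 342, 319.6 and 216 CPM in DMSO and 954, 812, 798 and 805 CPM with GSK101, log2 fold change 1.39 ± 0.16 (SE), adjusted p = 2.5e-08. The treated libraries were all above the controls. With loading at 9 h 11 of the 13 fell, where 23.7% of all tested genes were called, while 41 nuclear genes rose. The median of the 13 was -0.49. ND4, a proton-pumping subunit of complex I, stood at 194, 179, 178 and 222 CPM in DMSO and 119, 87.7, 89.2 and 99.1 CPM with loading, without overlap, log2 fold change -0.98 ± 0.09 (SE), adjusted p = 2.9e-09. The same 11-to-0 split downwards was found for loading with GSK205 against GSK205 at 9 h, where 18.0% of all tested genes were called. Its median was -0.34. With IL-1, 10 rose at 3 h and 13 at 9 h, where 32.2% and 65.1% of all tested genes were called. The medians were 0.40 and 0.59. With GSK101 at 9 h 11 rose, with a median of 0.38, where 62.3% of all tested genes were called. Summed over the 13 genes, the level was 8843 ± 566 CPM in DMSO at 9 h, 8300 ± 609 CPM with loading and 13725 ± 344 CPM with IL-1 (SD, n = 4). The sums with loading and in DMSO differed by less than 1 SD, although 11 of the genes were called lower. COX1 overlapped between these groups, at 4854, 4828, 5102 and 5396 CPM in DMSO and 5427, 5078, 4637 and 5473 CPM with loading.

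Several measures moved with these values. The GSK101 libraries at 3 h held 62677053 to 80223797 counts against 20651530 to 29904509 in DMSO. In the GSK101 libraries at 3 h, mitochondrial rRNA and tRNA took 0.808% to 3.04% of the counts, against 0.334% to 0.868% in DMSO. Small non-coding RNAs took 2.78% to 4.34% against 6.46% to 13.2%. That share pools small nuclear, nucleolar and micro RNAs with ribozymes, the miscellaneous RNA class and other small classes. Of 16 chondrocyte markers, 9 were higher and 1 lower with GSK101 at 3 h, and 3 were higher and 9 lower at 9 h. With IL-1 at 9 h 3 were higher and 8 lower. These are 62.5%, 75.0% and 68.8% of the markers, where 40.0%, 62.3% and 65.1% of all tested genes were called. At 9 h total counts were 36091153 to 63598533 with IL-1 and 28426748 to 60431543 with loading, against 24190041 to 35352928 in DMSO. The 10 fibroblast markers summed to 1178 to 1322 CPM with IL-1 at 9 h against 626 to 649.995 CPM in DMSO, and the 10 leukocyte markers to 90.9 to 99.6 CPM against 29.04 to 36.02 CPM. Single genes weigh heavily in these sums. Over all TRPV4 libraries CD14 reached 94.8 CPM, and no other leukocyte marker exceeded 3.88 CPM. COL3A1 reached 975 CPM, and no other fibroblast marker exceeded 234 CPM. The part of these measures in the results on the subunit genes was not tested. Neighbouring mitochondrial genes overlap (ATP8 with ATP6, ND4L with ND4) and ND6 lies opposite the others, so without a stated strand setting their single values are uncertain.

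**Figure D4:**
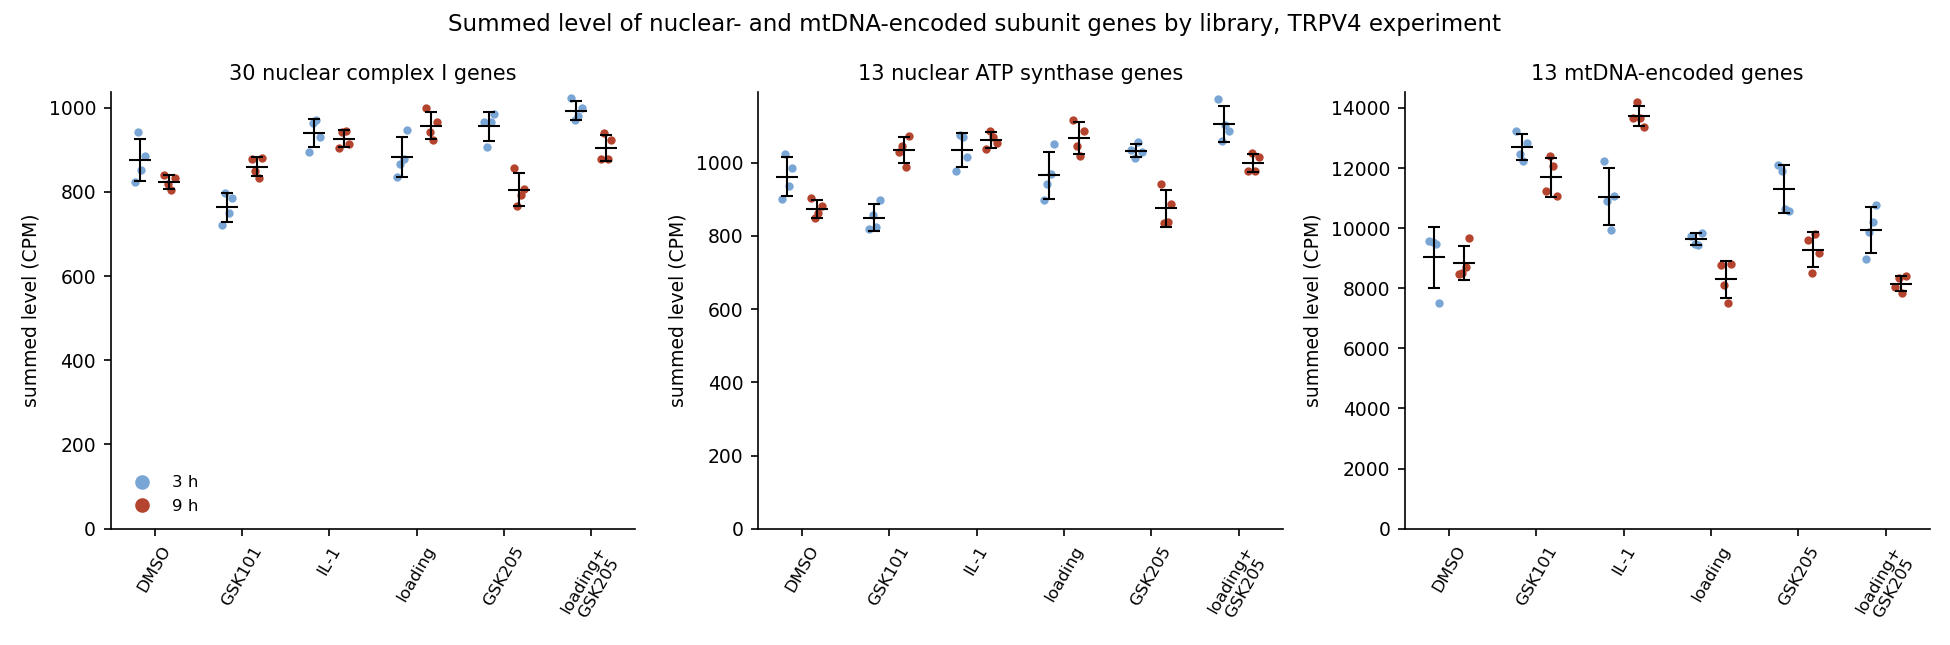
Summed level in CPM (vertical axis, from 0) of the 30 nuclear complex I genes, the 13 nuclear ATP synthase genes and the 13 mtDNA-encoded subunits in each library of the TRPV4 experiment at 3 h (blue) and 9 h (red); lines and bars are the mean and SD of 4 libraries. With GSK101 at 3 h the nuclear sums are lower than in DMSO and the mtDNA-encoded sum is higher, and with loading at 9 h both nuclear sums lie above those of DMSO.

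Genes around the chain were read from fixed lists. Cytochrome c, CYCS, which carries electrons from complex III to complex IV, rose with GSK101 by 0.44 ± 0.06 (adjusted p = 2.2e-07) at 3 h and 0.98 ± 0.06 (adjusted p = 6.1e-15) at 9 h. It rose with IL-1 by 1.11 ± 0.06 (adjusted p = 1.4e-16) and with loading by 0.23 ± 0.06 (adjusted p = 0.0079) at 9 h. At 9 h CYCS stood at 74.5, 69.1, 70.5 and 76.3 CPM in DMSO and 162, 164, 165 and 149 CPM with IL-1, with every treated library above every control. Of 36 tested assembly factors, which build the complexes but are not part of them, 17 fell and 1 rose with GSK101 at 3 h, 12 fell and 6 rose at 9 h, and 20 fell and 3 rose with IL-1 at 9 h. With loading at 9 h 12 rose and 1 fell. These calls are 50.0%, 50.0%, 63.9% and 36.1% of the list in that order, where 40.0%, 62.3%, 65.1% and 23.7% of all tested genes were called. The share at 9 h lay below the background with GSK101 and close to it with IL-1. Of all tested genes, 18.0% and 33.0% were called lower with GSK101 at 3 h and 9 h. With IL-1 at 9 h 34.5% were called lower, and with loading at 9 h 12.5% were called higher. LYRM7, an assembly factor for the Rieske protein of complex III, fell with GSK101, at -0.79 ± 0.24 (adjusted p = 0.0093) at 3 h and -2.11 ± 0.32 (adjusted p = 8.0e-07) at 9 h. It also fell with IL-1 at 9 h, at -1.52 ± 0.29 (adjusted p = 2.4e-05). ACAD9, a complex I assembly factor, fell with GSK101, at -0.82 ± 0.06 (adjusted p = 1.1e-12), and with IL-1, at -0.95 ± 0.06 (adjusted p = 1.0e-14), at 9 h.

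Among 20 tested regulators of respiratory genes, PPARGC1A, the coactivator of mitochondrial biogenesis, stood at 3.87, 4.10, 5.86 and 4.24 CPM in DMSO at 9 h. It stood at 1.31, 1.54, 1.72 and 1.71 CPM with GSK101, 1.77, 2.10, 2.03 and 2.06 CPM with IL-1 and 1.81, 2.56, 3.40 and 2.61 CPM with loading. All treated libraries were below the controls, -1.54 ± 0.20 (adjusted p = 4.1e-08), -1.20 ± 0.18 (adjusted p = 9.4e-07) and -0.83 ± 0.18 (adjusted p = 0.00082) in that order. TFAM, which packages and transcribes mitochondrial DNA, rose by 0.77 ± 0.08 (adjusted p = 9.6e-10) with GSK101 and 0.27 ± 0.08 (adjusted p = 0.0049) with IL-1 at 9 h, and NRF1, a transcription factor for many subunit genes, by 0.51 ± 0.06 (adjusted p = 2.7e-08) and 0.52 ± 0.06 (adjusted p = 1.1e-08). ESRRA, a nuclear receptor that works with PPARGC1A, stood at -0.31 ± 0.18 (adjusted p = 0.14), called without DMSO replicate 4, with GSK101 and at 0.35 ± 0.17 (adjusted p = 0.066), called without DMSO replicate 1 or 3 or IL-1 replicate 4, and also with RLE scaling, with IL-1. GABPA, which also binds subunit gene promoters and overlaps ATP5PF, rose with IL-1 by 0.44 ± 0.07 (adjusted p = 7.7e-07) and with GSK101 by 0.19 ± 0.07 (adjusted p = 0.015), and the call was lost without GSK101 replicate 2 or 4 or DMSO replicate 1. Over the list, 11 rose and 5 fell with GSK101, 8 rose and 7 fell with IL-1, and 3 rose and 2 fell with loading at 9 h. These are 80.0%, 75.0% and 25.0% of the list, where 62.3%, 65.1% and 23.7% of all tested genes were called, and the last is near the background. Of 29 tested electron carriers and citric acid cycle genes, 9 rose and 12 fell with GSK101, 15 rose and 9 fell with IL-1, and 14 rose and 3 fell with loading at 9 h, or 72.4%, 82.8% and 58.6% beside the same backgrounds. PDK4, a kinase that switches off pyruvate dehydrogenase, fell with IL-1, at -2.80 ± 0.32 (adjusted p = 4.3e-09). Of 24 tested genes of mitochondrial import and dynamics, 14 rose and 3 fell with GSK101, 17 rose and 5 fell with IL-1, and 10 rose and 3 fell with loading, or 70.8%, 91.7% and 54.2%. The ADP/ATP carrier SLC25A5 rose by 0.77 ± 0.07 (adjusted p = 1.2e-11) with GSK101 and 0.78 ± 0.07 (adjusted p = 4.8e-12) with IL-1, and the matrix protease subunit CLPP fell, at -1.07 ± 0.12 (adjusted p = 1.8e-09) and -1.38 ± 0.12 (adjusted p = 3.0e-12).

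The 11 subunit genes outside the naming rule gave 9 falls and 1 rise with GSK101 at 3 h, 7 rises and no fall with loading at 9 h, and 5 of each with IL-1 at 9 h. These are 90.9%, 63.6% and 90.9% of them, where 40.0%, 23.7% and 65.1% of all tested genes were called. SDHA, the succinate-oxidising subunit of complex II, fell with GSK101 at 3 h, at -0.36 ± 0.06 (adjusted p = 2.4e-05), and ATP5B, the catalytic beta subunit of ATP synthase, rose with loading at 9 h by 0.31 ± 0.05 (adjusted p = 7.6e-06). Cytosolic ribosomal protein genes, another large group of housekeeping genes, are given as a second reference. Of 71 tested, 6 rose and 29 fell with GSK101 at 3 h, 65 rose with GSK101 at 9 h, 61 rose with loading at 9 h and 65 rose and 1 fell with IL-1 at 9 h, or 49.3%, 91.5%, 85.9% and 93.0% where 40.0%, 62.3%, 23.7% and 65.1% of all tested genes were called.

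In the PIEZO1 experiment at 9 h, more subunit genes were called between siNTC and NT vehicle libraries than for compression or Yoda1 in any kind of cell. Between siNTC and NT vehicle libraries at 9 h, 23 of 63 genes were lower and 1 was higher, which is 38.1% where 5.30% of all tested genes were called and 2.63% were called lower. The median log2 fold change was -0.19 over the members and -0.00 over all genes. The falls lay in complex I (7), complex II (1), complex III (2), complex IV (6) and ATP synthase (7). ATP5MC1 stood at 402, 343, 382 and 379.7 CPM in NT and 265, 308, 267 and 304 CPM in siNTC, log2 fold change -0.41 ± 0.08 (SE), adjusted p = 0.0016. COX7C, a small complex IV subunit, stood at 537, 526, 515 and 521 CPM and 384, 408, 418 and 446 CPM, log2 fold change -0.36 ± 0.07 (SE), adjusted p = 0.00036. Neither gene's groups overlapped. Counted anew, calls were 8 without siNTC vehicle replicate 1, 12 without NT vehicle replicate 4, 13 without NT vehicle replicate 1, 14 without siNTC vehicle replicate 3 and 15 without NT vehicle replicate 3 or siNTC vehicle replicate 2. Among the 10 core subunits 1 was lower (COX4I1), and among the 5 isoform and inhibitor genes 1 was lower (COX4I2). At 3 h 3 of 63 were lower, COX4I2, UQCR10 and ATP5MC3, where 7.53% of all tested genes were called. Fewer libraries gave another count of calls, 1 without NT vehicle replicate 1, 2 or 3 or siNTC vehicle replicate 1, 2 or 4 and 6 without NT vehicle replicate 4. Among 72 tested cytosolic ribosomal protein genes, 53 were lower and none higher in siNTC than NT at 9 h, which is 73.6%.

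COX4I2 was lower in siNTC than NT and lower again in siPIEZO1. At 9 h the vehicle libraries stood at 72.1, 62.5, 62.7 and 64.0 CPM in NT, 50.9, 50.9, 44.1 and 47.0 CPM in siNTC and 31.5, 26.4, 35.3 and 35.8 CPM in siPIEZO1. The 3 kinds of cell did not overlap, log2 fold change -0.46 ± 0.10 (SE), adjusted p = 0.0021 for siNTC against NT and log2 fold change -0.57 ± 0.10 (SE), adjusted p = 8.4e-05 for siPIEZO1 against siNTC. At 3 h they stood at 76.3, 85.2, 66.6 and 62.5 CPM, 49.4, 49.3, 38.9 and 42.8 CPM and 52.4, 28.8, 30.2 and 28.9 CPM. The siPIEZO1 library that overlaps siNTC here, replicate 1, is the one with the widest gap above. The fall from NT to siNTC was called at 3 h, -0.69 ± 0.13 (adjusted p = 0.00049), and that from siNTC to siPIEZO1 was not, -0.35 ± 0.13 (adjusted p = 0.14). Without that library the latter was -0.61 (adjusted p = 0.00023). The same order held without overlap under compression at 9 h, with 74.6, 61.0, 56.8 and 61.9 CPM, 44.4, 44.8, 40.5 and 39.7 CPM and 26.1, 30.6, 27.2 and 28.8 CPM, and with Yoda1 at 9 h, with 73.7, 59.9, 71.2 and 74.0 CPM, 44.9, 42.7, 38.7 and 48.7 CPM and 31.1, 29.97, 28.3 and 29.5 CPM. These differences were not tested within the stimulated groups. Within no kind of cell was COX4I2 called for compression or Yoda1.

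The siPIEZO1 and siNTC vehicle libraries otherwise differed in few nuclear genes. At 9 h 3 of 63 were higher and 1 lower, where 10.8% of all tested genes were called: COX7A2, NDUFA11 and COX4I1 were higher and COX4I2 lower. The count of calls was 1 without siNTC vehicle replicate 1 and 2 without siPIEZO1 vehicle replicate 2 or 4. At 3 h 1, NDUFB11, was higher, where 5.07% of all tested genes were called. Calls numbered 0 without siNTC vehicle replicate 1, 3 or 4 or siPIEZO1 vehicle replicate 3 or 4, 2 without siPIEZO1 vehicle replicate 2 and 3 without siPIEZO1 vehicle replicate 1. The median at 3 h was 0.14 with all libraries and -0.08 without replicate 1 of siPIEZO1 vehicle. Of the 13 mtDNA-encoded genes, 12 were lower in siPIEZO1 than siNTC at 9 h, with a median of -0.57.

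**Figure D5:**
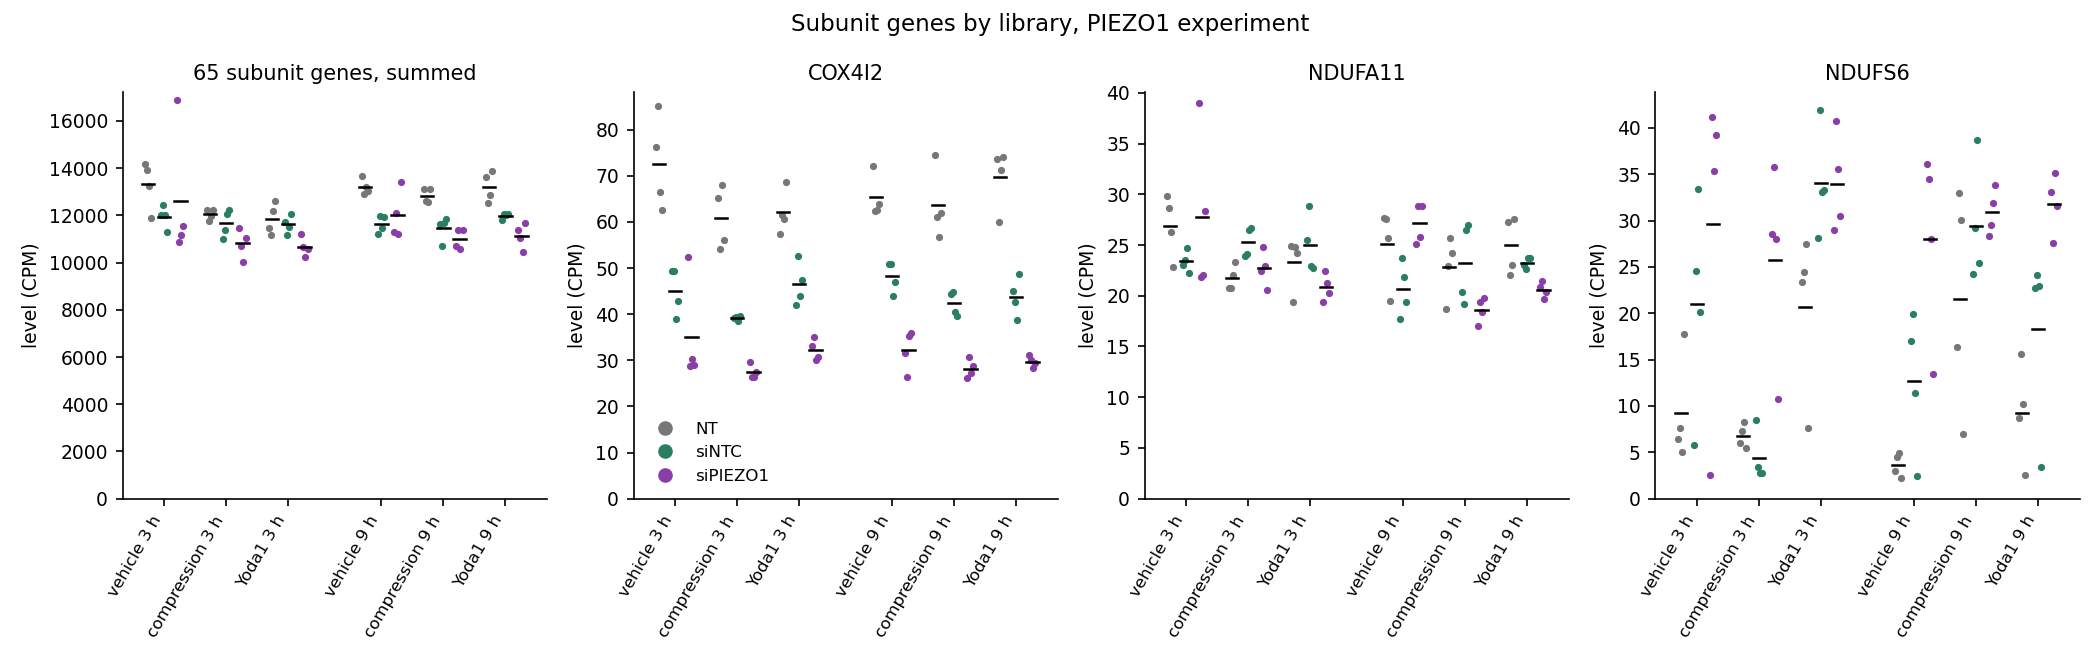
Level in CPM (vertical axis, from 0) by library in the PIEZO1 experiment for the sum of the 65 genes and for COX4I2, NDUFA11 and NDUFS6, in NT (grey), siNTC (green) and siPIEZO1 (purple) cells with vehicle, compression or Yoda1; bars are group means of 4 libraries. COX4I2 falls from NT to siNTC to siPIEZO1 without overlap in each 9 h treatment, NDUFS6 spreads from 2.23 to 41.9 CPM, and 1 siPIEZO1 vehicle library at 3 h stands far above the rest in the sum.

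Compression changed few subunit genes. In NT cells 5 of 63 fell at 3 h, where 6.27% of all tested genes were called. COX6A2 stood at 82.1, 82.8, 88.2 and 74.4 CPM with vehicle and 62.3, 61.8, 66.3 and 58.8 CPM with compression, without overlap, log2 fold change -0.40 ± 0.09 (SE), adjusted p = 0.003. The other four were COX5A, ATP5F1D, NDUFAB1 and NDUFB10, at -0.36 ± 0.09 (adjusted p = 0.011) for COX5A, and the call was lost without NT vehicle replicate 2. The number of calls became 1 without NT vehicle replicate 2, 2 without NT compression replicate 4 and 3 without NT vehicle replicate 1 or 3 or NT compression replicate 2. At 9 h 3 rose and 3 fell in NT cells, where 3.51% were called. NDUFA4L2 rose by 0.37 ± 0.10 (adjusted p = 0.034), and the call was lost without NT vehicle replicate 2, 3 or 4 or NT compression replicate 2 or 4, and also with the compared groups fitted alone. COX7A2L fell, at -0.26 ± 0.06 (adjusted p = 0.016), and the call was lost without NT vehicle replicate 2 or NT compression replicate 2. COX7C fell, at -0.25 ± 0.06 (adjusted p = 0.024), and the call was lost without NT vehicle replicate 1, 2 or 4 or NT compression replicate 1 or 2, and also with the compared groups fitted alone. SDHD fell, at -0.23 ± 0.06 (adjusted p = 0.023), and the call was lost without NT vehicle replicate 1 or 4 or NT compression replicate 2, 3 or 4, and also without the filter on low counts or with the compared groups fitted alone. Counted anew, calls were 1 without NT compression replicate 2, 2 without NT vehicle replicate 2 or 4 and 3 without NT vehicle replicate 1. In siNTC cells 1 gene fell at 3 h, NDUFS6, where 0.911% were called. Fewer libraries gave another count of calls, 0 without siNTC vehicle replicate 2 or 3 or siNTC compression replicate 2, 3 or 4. At 9 h 1 rose and 2 fell, NDUFA10, COX7A2L and SDHD, where 6.43% were called. The count of calls was 0 without siNTC vehicle replicate 3 or 4 or siNTC compression replicate 2 or 3 and 1 without siNTC compression replicate 1 or 4. In siPIEZO1 cells none of 63 was called at 3 h in edgeR's test (42 at an unadjusted p under 0.05 and 1 by DESeq2), where 0.600% of all tested genes were. Without replicate 1 of siPIEZO1 vehicle the count at an unadjusted p became 3 in edgeR's test, and the median went from -0.24 to -0.06. At 9 h 4 fell, NDUFA11, COX4I1, ATP5ME and NDUFS4, where 2.18% were called. Calls numbered 1 without siPIEZO1 vehicle replicate 4 or siPIEZO1 compression replicate 1, 2 or 3 and 2 without siPIEZO1 vehicle replicate 2.

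The effect of compression at 9 h differed between siPIEZO1 and siNTC cells for 2 of 63 genes, where 1.09% of all tested genes were called for this difference. NDUFA11, an accessory subunit in the membrane arm of complex I, stood at 25.1, 28.8, 25.8 and 28.8 CPM with vehicle and 17.1, 19.4, 18.4 and 19.8 CPM with compression in siPIEZO1 cells. In siNTC cells it stood at 17.8, 23.7, 21.9 and 19.3 CPM and 20.4, 19.2, 26.5 and 27.0 CPM. The siPIEZO1 groups did not overlap and the siNTC groups did, and the difference of the effects was -0.71 ± 0.17 (adjusted p = 0.028) on the log2 scale, and the call was lost without siNTC vehicle replicate 1, 3 or 4, siNTC compression replicate 3 or 4, siPIEZO1 vehicle replicate 2 or 4 or siPIEZO1 compression replicate 1 or 3, and also with the compared groups fitted alone. COX4I1 stood at 129, 139, 129.9 and 173 CPM and 103, 110.5, 114 and 116 CPM in siPIEZO1 cells and at 105, 127, 115 and 126 CPM and 123, 116, 156 and 134 CPM in siNTC cells, with the same pattern of overlap and a difference of -0.53 ± 0.13 (adjusted p = 0.034), and the call was lost without siNTC vehicle replicate 1 or 3, siNTC compression replicate 3, siPIEZO1 vehicle replicate 2 or 4 or siPIEZO1 compression replicate 1 or 2, and also with the compared groups fitted alone. The number of calls became 0 without siNTC vehicle replicate 1 or 3, siNTC compression replicate 3, siPIEZO1 vehicle replicate 2 or 4 or siPIEZO1 compression replicate 1 and 1 without siNTC vehicle replicate 4, siNTC compression replicate 4 or siPIEZO1 compression replicate 2 or 3. Vehicle levels of both genes were also higher in siPIEZO1 than in siNTC cells, and the comparisons share these vehicle libraries. At 3 h the same test called none (7 at an unadjusted p under 0.05 and 0 by DESeq2), where 0% of all tested genes were called. Without replicate 1 of siPIEZO1 vehicle the 7 became 1, and the median difference went from -0.22 to -0.02.

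Yoda1 gave calls in siPIEZO1 cells at 9 h alone. There 2 of 63 genes fell, where 2.54% of all tested genes were called: ATP5ME and ATP5MC2. ATP5ME stood at -0.36 ± 0.09 (adjusted p = 0.029), and the call was lost without siPIEZO1 vehicle replicate 2 or 4 or siPIEZO1 Yoda1 replicate 2, 3 or 4, and also with the compared groups fitted alone. ATP5MC2 stood at -0.31 ± 0.08 (adjusted p = 0.036), and the call was lost without siPIEZO1 vehicle replicate 2 or 4 or siPIEZO1 Yoda1 replicate 2 or 3, and also without the filter on low counts or with the compared groups fitted alone. DESeq2 called 12. Counted anew, calls were 0 without siPIEZO1 vehicle replicate 2 or 4 or siPIEZO1 Yoda1 replicate 2 or 3, 1 without siPIEZO1 Yoda1 replicate 4, 5 without siPIEZO1 vehicle replicate 1 and 12 without siPIEZO1 vehicle replicate 3. None was called in edgeR's test in NT cells at 3 h (25 at an unadjusted p under 0.05 and 0 by DESeq2, where 0.409% of all tested genes were called) or at 9 h (3 and 0, where 0% were). None was called in siNTC cells at 3 h (8 and 1, where 5.40% were) or at 9 h (4 and 0, where 0% were), or in siPIEZO1 cells at 3 h (41 and 0, where 0.262% were). In the last, without replicate 1 of siPIEZO1 vehicle, the 41 became 0 and the median of -0.28 became -0.08. The effect of Yoda1 was not called as different between siPIEZO1 and siNTC cells for any of 63 genes at 3 h (19 and 0, where 0.938% were) or at 9 h (21 and 1, where 0.0269% were). Without that library the 19 at 3 h became 7, and the median difference went from -0.20 to -0.06.

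NDUFS6, a zinc-binding accessory subunit of the NADH-oxidising arm of complex I (chromosome 16, 78993909 to 79000001), varied widely between replicates of a group. Within NT compressed libraries at 9 h it stood at 16.4, 33.0, 30.02 and 6.998 CPM, against 3.01, 4.52, 4.88 and 2.23 CPM with vehicle, log2 fold change 2.55 ± 0.50 (SE), adjusted p = 0.0027. These groups did not overlap. Within siNTC vehicle libraries at 9 h it stood at 16.998, 19.9, 11.4 and 2.47 CPM, which overlaps NT, 1.77 ± 0.50 (adjusted p = 0.027), and the call was lost without NT vehicle replicate 1 or 4 or siNTC vehicle replicate 1 or 2. In replicate 1 of siPIEZO1 vehicle at 3 h, NDUFS6 was at 2.51 CPM, against 35.4 to 41.2 CPM in the other 3, although 32 of the 65 genes stood out as high there. NDUFA10, another accessory subunit of complex I, was at 9.65 CPM in that library and at 63.7 to 68.8 CPM in the others. NDUFA10 was called higher with compression at 9 h in NT cells, 0.96 ± 0.28 (adjusted p = 0.046), and the call was lost without NT vehicle replicate 1, 2, 3 or 4 or NT compression replicate 2 or 3. It was also called higher in siNTC cells, 0.91 ± 0.28 (adjusted p = 0.043), and the call was lost without siNTC vehicle replicate 3 or 4 or siNTC compression replicate 1, 2, 3 or 4, and also with the compared groups fitted alone.

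Over the 12 pairwise comparisons of the TRPV4 experiment, ATP5PB and ATP5PO, subunits of the peripheral stalk of ATP synthase, were each called 8 times, 7 higher and 1 lower. ATP5PF, of the same stalk, was called 7 times, always higher. Called in none were NDUFA11, NDUFB4 and NDUFS8, which were tested each time, and NDUFB7, COX7A1 and COX6B2, which were not tested. Over the 16 pairwise comparisons of the PIEZO1 experiment 29 of the 65 were called in none, ATP5PB among them. These include NDUFB7 and COX7A1, which were not tested there. The same counts over all tested genes are not given, so these tallies have no background beside them. The comparisons share control libraries, so these counts are not independent.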

How the data were processed

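RNA sequencing of 120 libraries gave 1 table of read counts per gene, which the authors deposited as whole numbers without normalisation. Per the submitters' processing notes, Trim Galore, STAR, HTSeq and the build Sscrofa11.1 were used; their versions and the counting strand are not stated there. Library kits differed, per the labels' protocols: random hexamers after removal of ribosomal RNA for TRPV4, and a SMARTer kit from 10 ng RNA for PIEZO1; the labels name polyA RNA for every sample. Repeated lines (481 of 32388) were removed.

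Each experiment and time was fitted in 1 edgeR 4.0.16 quasi-likelihood model (limma 3.58.1, R 4.3.3; TMM scaling; filterByExpr with a minimum count of 10; 24 or 36 libraries), and both times together for contrasts between times (48 or 72). Between 16540 and 20202 genes were tested. Adjusted p-values are Benjamini-Hochberg over all genes of a contrast, with 38 contrasts in all, and a call is an adjusted p under 0.05. SE is the log2 fold change divided by the root of F. Two-sided tests were used throughout. The model was tested on simulated data with known changes.

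Alternatives were DESeq2 1.42.0, RLE scaling, no filter, protein-coding genes alone, the contrast's groups alone, the replicate number as a block, and each library left out. Replicate numbers did not pair the libraries. Whether replicates are separate animals is not stated. The p-values therefore measure only the spread between these libraries, which may be technical. Genes were named by a rule: 10 core subunits and 5 isoform and inhibitor genes, named or counted in each main comparison, the called gene of each complex with the largest change, up to 3 rises and falls, and up to 3 genes of each other list. The PIEZO1 genes singled out beyond it were chosen after their values were seen. The members and lists were chosen with earlier results of these data known. No sequence is shown, since none was used here. RefSeq positions are those of Sscrofa11.1.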

Additional observations from a re-analysis of the deposited data

Results flagged for a closer look

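In 161 groups of 4 libraries, over the gene levels and sums given above, 11 held a library far from the other 3, which is 6.83%; chance alone gives about 1 in 20. The sum over the 65 genes stood apart at 16886 CPM in siPIEZO1 vehicle replicate 1 at 3 h, at 4273 CPM in loading with GSK205 replicate 1 at 3 h, at 3833 CPM in GSK205 replicate 2 at 3 h and at 11795 CPM in siNTC Yoda1 replicate 1 at 9 h. The mtDNA-encoded sum stood apart at 7519 CPM in DMSO replicate 4 at 3 h, at 7360.1 CPM in NT Yoda1 replicate 3 at 3 h and at 7511 CPM in siNTC vehicle replicate 1 at 3 h. Among single genes, ATP6 stood apart at 954 CPM in GSK101 replicate 1 at 3 h, SDHB at 54.9 CPM in DMSO replicate 1 at 9 h, and COX4I2 at 72.1 CPM in NT vehicle replicate 1 at 9 h and at 52.4 CPM in siPIEZO1 vehicle replicate 1 at 3 h.

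Effects that differed between times or kinds of cell, by edgeR's test of the difference itself, were these on the log2 scale. For GSK101 at 9 h against 3 h they were 1.02 for COX4I1, 1.10 for COX7A2, -0.53 for COX6A2 and -0.36 for SDHC. For IL-1 they were -0.53 for COX4I2, -0.62 for COX6A2, 0.60 for COX7A2, 0.69 for NDUFB6 and 0.52 for NDUFV2. For compression at 9 h in siPIEZO1 against siNTC cells they were -0.53 for COX4I1 and -0.71 for NDUFA11.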

How the results depend on the processing

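The counts of members called with GSK101, loading at 9 h and IL-1 at 9 h stayed within 1.5 times of those above under each alternative and without each library, as did that of the mtDNA-encoded subunits named above. Medians of the members' log2 fold changes moved by less than the median SE in 364 of 368 fits that left out 1 library, and in each of the other alternatives. Of 118 values for named genes, the side of the threshold changed in 3 with RLE scaling, 4 without the filter, 1 with protein-coding genes alone, 1 with DESeq2, 9 with the contrast's groups alone and 2 with the block. Each is named beside its value above; those lost with the block were ATP5IF1 (loading against DMSO at 3 h) and NDUFB3 (loading against DMSO at 3 h), and those lost with the contrast's groups alone were NDUFB3 (loading against DMSO at 3 h), COX7C (compression against vehicle in NT at 9 h), NDUFA4L2 (compression against vehicle in NT at 9 h), SDHD (compression against vehicle in NT at 9 h), NDUFA10 (compression against vehicle in siNTC at 9 h), ATP5MC2 (Yoda1 against vehicle in siPIEZO1 at 9 h), ATP5ME (Yoda1 against vehicle in siPIEZO1 at 9 h), COX4I1 (interaction of PIEZO1 siRNA and compression at 9 h) and NDUFA11 (interaction of PIEZO1 siRNA and compression at 9 h). With RLE scaling, counts that moved by over 1.5 times were 1 for loading against DMSO at 3 h and 0 for siPIEZO1 against siNTC in vehicle at 3 h. Without the filter on low counts, counts that moved by over 1.5 times were 1 for loading with GSK205 against GSK205 at 3 h, 1 for interaction of loading and GSK205 at 3 h, 1 for interaction of loading and GSK205 at 9 h and 3 for compression against vehicle in NT at 3 h. Further counts there were 1 for siNTC against NT in vehicle at 3 h, 0 for siPIEZO1 against siNTC in vehicle at 3 h, 1 for compression against vehicle in siNTC at 9 h and 1 for Yoda1 against vehicle in siPIEZO1 at 9 h. The others were 2 for siPIEZO1 against siNTC in vehicle at 9 h. With protein-coding genes alone, counts that moved by over 1.5 times were 1 for loading against DMSO at 3 h, 1 for loading with GSK205 against GSK205 at 3 h, 1 for interaction of loading and GSK205 at 3 h and 7 for GSK205 against DMSO at 9 h. Further counts there were 1 for Yoda1 against vehicle in siNTC at 3 h and 8 for Yoda1 against vehicle in siPIEZO1 at 9 h. With DESeq2, counts that moved by over 1.5 times were 1 for interaction of loading and GSK205 at 3 h, 2 for interaction of loading and GSK205 at 9 h, 1 for Yoda1 against vehicle in siNTC at 3 h and 1 for compression against vehicle in siPIEZO1 at 3 h. Further counts there were 11 for compression against vehicle in siPIEZO1 at 9 h, 12 for Yoda1 against vehicle in siPIEZO1 at 9 h, 7 for siPIEZO1 against siNTC in vehicle at 9 h and 1 for interaction of PIEZO1 siRNA and Yoda1 at 9 h. With the contrast's groups alone, counts that moved by over 1.5 times were 1 for loading against DMSO at 3 h, 2 for loading with GSK205 against GSK205 at 3 h, 10 for IL-1 against DMSO at 3 h and 1 for GSK205 against DMSO at 9 h. Further counts there were 2 for compression against vehicle in siNTC at 3 h, 11 for siNTC against NT in vehicle at 3 h, 0 for siPIEZO1 against siNTC in vehicle at 3 h and 3 for compression against vehicle in NT at 9 h. The others were 0 for compression against vehicle in siNTC at 9 h, 1 for compression against vehicle in siPIEZO1 at 9 h, 0 for Yoda1 against vehicle in siPIEZO1 at 9 h and 15 for siNTC against NT in vehicle at 9 h. The others were 1 for siPIEZO1 against siNTC in vehicle at 9 h and 0 for interaction of PIEZO1 siRNA and compression at 9 h. With the replicate number as a block, counts that moved by over 1.5 times were 0 for loading against DMSO at 3 h, 6 for compression against vehicle in siNTC at 9 h, 9 for compression against vehicle in siPIEZO1 at 9 h and 12 for Yoda1 against vehicle in siPIEZO1 at 9 h. Further counts there were 7 for siPIEZO1 against siNTC in vehicle at 9 h, 2 for interaction of PIEZO1 siRNA and Yoda1 at 9 h and 7 for NT vehicle between times. The block is given as an alternative only: over 30 comparisons of pairs of groups, correlations of same-numbered libraries lay between -0.13 and 0.11, in 0 comparisons was each pair over 0.1, and in 0 was every library closest to its own number. Leaving out 1 library at a time, counts ran from 10 to 23 for DMSO between times, from 0 to 6 for GSK205 against DMSO at 9 h, from 10 to 19 for IL-1 against DMSO at 3 h and from 2 to 5 for NT vehicle between times. They ran from 0 to 1 for Yoda1 against vehicle in NT at 3 h, from 0 to 1 for Yoda1 against vehicle in siNTC at 3 h, from 0 to 1 for Yoda1 against vehicle in siPIEZO1 at 3 h and from 0 to 12 for Yoda1 against vehicle in siPIEZO1 at 9 h. Ranges were from 1 to 6 for compression against vehicle in NT at 3 h, from 1 to 5 for compression against vehicle in NT at 9 h, from 0 to 1 for compression against vehicle in siNTC at 3 h and from 0 to 4 for compression against vehicle in siNTC at 9 h. Likewise they were from 0 to 1 for compression against vehicle in siPIEZO1 at 3 h, from 1 to 6 for compression against vehicle in siPIEZO1 at 9 h, from 0 to 2 for interaction of PIEZO1 siRNA and compression at 9 h and from 0 to 1 for interaction of loading and GSK205 at 3 h. Further ranges were from 0 to 3 for interaction of loading and GSK205 at 9 h, from 0 to 3 for loading against DMSO at 3 h, from 0 to 1 for loading with GSK205 against GSK205 at 3 h and from 6 to 33 for loading with GSK205 against loading at 3 h. They lay from 2 to 8 for loading with GSK205 against loading at 9 h, from 1 to 6 for siNTC against NT in vehicle at 3 h, from 8 to 22 for siNTC against NT in vehicle at 9 h and from 0 to 3 for siPIEZO1 against siNTC in vehicle at 3 h. Others ran from 1 to 5 for siPIEZO1 against siNTC in vehicle at 9 h. The causes were not tested. With 4 libraries a group, precision is limited.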
